A study of Mus musculus with 2 samples.

Results

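The genes described here are the monocyte chemoattractants Ccl2, Ccl7, Ccl8 and Ccl12 and the receptor Ccr2, taken by symbol from the deposited table of raw counts, in which all 5 of 5 were found among 14654 genes. They were measured by droplet single-cell RNAseq in CD45+ cells sorted from subcutaneous YUMMER1.7 tumors, a mouse melanoma line, together with a smaller part of CD45- cells. The hosts were male C57BL/6 mice aged 8 weeks that were wild type (WT) or Siah2-/-, a global deletion of a ubiquitin ligase, and tumors had grown for 11 days. Tumors of a group were minced and digested together, and 1 library was made for each genotype, so genotype, tumors, digestion, library and sequencing lane cannot be told apart. The injected tumor cells do not carry the genotype of the host.

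In CC chemokine biology, CCL2, CCL7 and mouse CCL12 are ligands of CCR2, the receptor that Ly6C-high monocytes use to leave the bone marrow and enter inflamed tissue and tumors. CCL8 belongs to the same family of monocyte chemoattractants but in the mouse acts chiefly on CCR8, a receptor of activated T cells. Monocytes lose Ccr2 as they become macrophages, and macrophages in turn are a main source of these ligands.

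The 4 ligand genes lie in 1 cluster of 5 coding genes that spans 81229 bases of chromosome 11 (GRCm38, GENCODE M21), all on the plus strand, and each has 3 exons. Ccl2 (ENSMUSG00000035385) is at chr11:82035571-82037453 and Ccl7 (ENSMUSG00000035373) 8258 bases downstream at chr11:82045712-82047525. After Ccl11, an eosinophil chemoattractant, follow Ccl12 (ENSMUSG00000035352) at chr11:82101845-82103400 and, 11784 bases further on, Ccl8 (ENSMUSG00000009185) at chr11:82115185-82116799. Ccr2 (ENSMUSG00000049103) is at chr9:124101950-124113557, next to the gene of the related receptor Ccr3. A promoter entry was matched for 3 of the 5 genes in the RefSeq table of build GRCm38.p6. The 250 bases before the start of Ccl12 (chr11:82101595-82101844, plus strand) and of Ccl8 (chr11:82114935-82115184, plus strand) are shown because with both libraries given the same mix of macrophage states, as described further on, these neighbours had the ratios between the libraries farthest from and nearest to 0 of the 4 ligands. Capitals mark the motif TATAAA, the letters of a TATA box.
Ccl12: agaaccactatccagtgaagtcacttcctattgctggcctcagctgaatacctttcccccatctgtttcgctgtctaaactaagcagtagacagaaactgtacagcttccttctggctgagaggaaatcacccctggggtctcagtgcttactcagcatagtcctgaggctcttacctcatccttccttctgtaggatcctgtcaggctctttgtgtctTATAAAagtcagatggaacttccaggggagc
Ccl8: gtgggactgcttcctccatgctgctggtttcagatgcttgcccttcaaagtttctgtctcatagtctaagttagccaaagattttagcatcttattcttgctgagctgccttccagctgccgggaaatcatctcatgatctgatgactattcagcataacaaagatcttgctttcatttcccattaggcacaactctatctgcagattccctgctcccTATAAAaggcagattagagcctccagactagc
TATAAA began 31 bases before the start of Ccl12 and 32 bases before the start of Ccl8, and was found on either strand in 12.4% of 32851 such promoter windows. Neither window held TGANTCA (letters bound by AP-1, in 6.75% of windows) or TTCNNNGAA (letters bound by STAT factors, in 7.02%) on either strand.

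The raw counts covered 4512 WT cells with 64781513 unique molecular identifiers (UMIs, each standing for 1 captured transcript) and 5563 Siah2-/- cells with 59080246 UMIs. Median UMIs per cell were 11434.5 and 8699, the lowest were 6670 and 4896, and 34 cell barcodes occurred in both libraries. Siah2 itself gave 660 UMIs in the WT library and 505 in the Siah2-/- library, so the 3′ tags do not check the labels, and Siah2-/- is used below for the library that carries this label. Cells were sorted into gates by the summed UMIs of marker genes in cells thinned to 4000 UMIs, and no gene of the 5 took part in this. A total of 68 cells lay within 1.25-fold of the macrophage threshold, and 438 cells within 1 UMI of the T cell threshold. Levels are UMIs of the gene in 1000000 UMIs of the gate (CPM), with exact 95% Poisson intervals, and ratios between libraries carry exact conditional binomial intervals. Both cover counting error only, because with 1 library a genotype there is no measure of the spread between tumors and no test between the genotypes is possible.

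Macrophages and monocytes, gated by markers such as Csf1r, C1qa and Lyz2, held most of the ligand UMIs. They were 2101 of the WT cells and 2465 of the Siah2-/- cells. Of the UMIs of Ccl12, 88.3% in WT and 84.2% in Siah2-/- lay in these gates. The share was 84.6% and 79.8% for Ccl7, 78.7% and 72.3% for Ccl8, and 65.5% and 75.6% for Ccl2. Ccr2 had 65.6% and 53.4% of its UMIs in macrophages and monocytes, in WT much the same share as Ccl2. T and NK cells held 20.6% and 34.2% of the Ccr2 UMIs. Barcodes with markers of more than 1 lineage, which can be doublets, were kept apart and held between 8.89% and 19.9% of the UMIs of a gene.

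**Figure D1:**
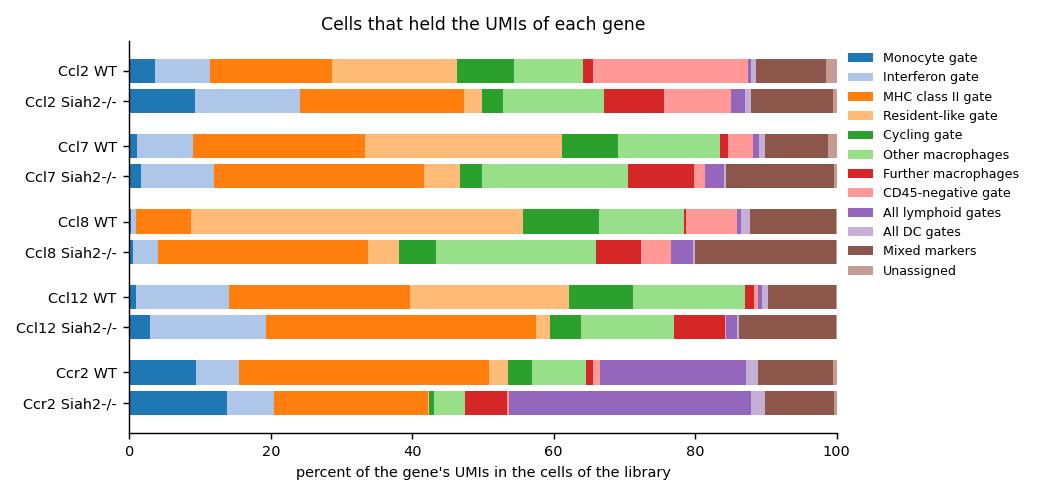
Stacked bars show, for each gene and library, the percent of its UMIs (x axis) that lay in the cells of each gate. Resident-like macrophages (light orange) held 46.8% of the Ccl8 UMIs of WT and 4.46% of those of Siah2-/-, and T and NK cells (purple) held a large part of Ccr2 but little of any ligand.

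The macrophages were divided further. The monocyte gate was set by Chil3, Vcan and Ly6c2, the interferon gate by Isg15 and the Ifit genes, the MHC class II gate by Mgl2, H2-Ab1 and Cd74, the resident-like gate by Folr2, Fcrls, Mrc1 and Cd163, and the cycling gate by Mki67 and Top2a. Cells that passed no gate of a state are called other macrophages. These 6 states are described, and 1 further state enters the totals over all macrophages and the mix of 7 states but is not described. The mix of these states differed between the libraries. The resident-like gate held 241 cells, or 11.5% of macrophages (95% exact interval 10.1 to 12.9), in WT and 19 cells, or 0.771% (0.465 to 1.20), in Siah2-/-. The monocyte gate held 220 cells or 10.5% and 443 cells or 18.0%. This difference depended on depth, since the lowest UMI count of a kept cell differed between the libraries. With the lowest WT count applied to both, the monocyte gate was 10.5% (9.19 to 11.9) of WT and 10.7% (9.32 to 12.1) of Siah2-/- macrophages. Among all barcodes with at least 1000 UMIs, macrophages high in monocyte markers were 31.9% and 28.3%. This set is not the same as the monocyte gate, which took only cells left by the cycling, resident-like, interferon and undescribed states. The resident-like share of Siah2-/- was 0.889% with the WT minimum. Many macrophages lay within 1.25-fold of the threshold of a state. They numbered 158 in WT and 189 in Siah2-/- for the monocyte gate, 173 and 172 for the interferon gate, 261 and 418 for the MHC class II gate, 81 and 14 for the resident-like gate and 83 and 36 for the cycling gate. The MHC class II gate was the largest in both, with 967 and 1008 cells. T cell markers in the macrophage gates, as a sign of RNA from other cells, summed to 82.3 and 118 CPM, and their part in the results was not tested.

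**Figure D2:**
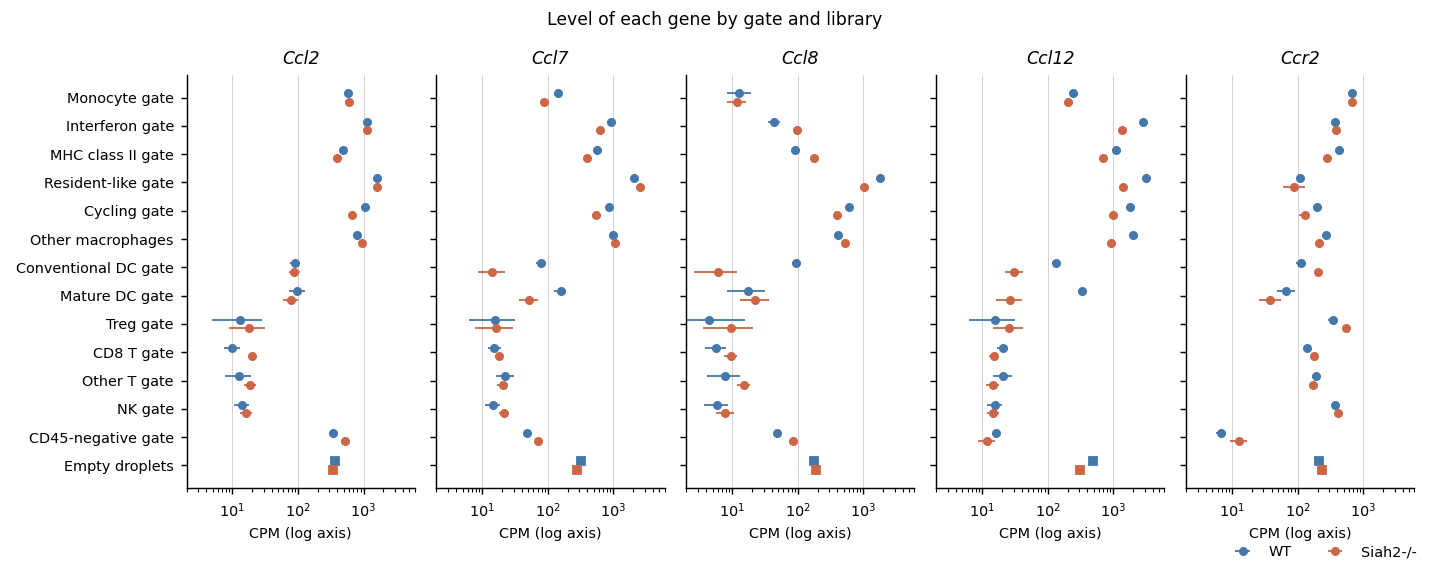
Each point is the level of a gene (x axis, CPM, log axis) in the cells of a gate (rows), with WT in blue and Siah2-/- in orange and bars for the 95% Poisson interval. Squares give the level in empty droplets of the same library. Ligand levels in T and NK cells lay far below the squares, and Ccr2 levels there did not.

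Ccl12, a mouse ligand of CCR2, had the largest ratio of the 5 genes between the libraries over all macrophage gates together, though not in every state. In each of the 6 states described its Siah2-/- interval lay below that of WT. The interferon gate held 2834 CPM (2763 to 2906) in WT and 1352 (1308 to 1397) in Siah2-/-, and the resident-like gate 3113 (3054 to 3174) and 1416 (1287 to 1553). The MHC class II gate, the state with the most cells, held 1094 (1074 to 1113) and 692 (677 to 707). Other macrophages had 1962 and 927 and the cycling gate 1805 and 976. In the monocyte gate, where Ccl12 was lowest, the levels were 245 (223 to 268) and 202 (187 to 218).

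The log2 ratios of Ccl12 ran from -1.14 (-1.28 to -1.0) in the resident-like gate to -0.28 (-0.45 to -0.10) in the monocyte gate, and 5 of the 6 states were past a 1.5-fold difference. Of all genes with at least 20 UMIs in a gate, the share that was 1.5-fold or more lower in Siah2-/- was 4.61% in the MHC class II gate, 5.97% in other macrophages, 9.54% in the interferon gate, 9.62% in the monocyte gate, 9.74% in the cycling gate and 20.5% in the resident-like gate. The share 1.5-fold or more higher was 8.95% in the MHC class II gate and 10.9% in the interferon gate, where Ccl8 was past this difference, 11.1% in other macrophages, 11.3% in the monocyte gate, 10.5% in the cycling gate and 15.5% in the resident-like gate. In the interferon gate 83 genes had at least as many UMIs as Ccl12, itself included, and none of them had a lower ratio. Among 187 such genes of the MHC class II gate 1 did, and in the monocyte gate 74 of 687. Over all genes tested, 1.94% had a lower ratio than Ccl12 in the interferon gate and 3.72% in the MHC class II gate. The share was 1.49% in other macrophages, 4.33% in the cycling gate, 9.38% in the resident-like gate and 25.9% in the monocyte gate.

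The lower Ccl12 level was seen across cells. In the MHC class II gate the median cell had 295 CPM of Ccl12 in WT and 125 in Siah2-/-, the upper quartile was 1190 and 575, and the share of cells with a UMI after thinning was 61.6% and 47.8%. After thinning, 3 or more UMIs were counted in 42.1% of all WT macrophages (exact interval 40.0 to 44.2) but in 20.1% of those of Siah2-/- (18.5 to 21.7). For comparison, a UMI of Ccl12 was found in 6.75% and 5.72% of T and NK cells, whose median UMIs were 9297.5 and 7464, against 10350 and 9226 in macrophages. Without the cell with the most Ccl12 UMIs in each library, the ratio stayed below 0 in these 6 states, between -1.39 and -0.30. With the thresholds of the states raised to 1.5 times, the ratio was between -2.54 in the resident-like gate, which kept 5 Siah2-/- cells, and -0.41 in the monocyte gate. With the thresholds lowered by 1.5 times it was between -1.31 in the resident-like gate and -0.60 in the MHC class II gate, and the monocyte gate was then at -0.80. When each library was clustered separately in place of the gates, Ccl12 in the clusters of the MHC class II state was at -0.29 (-0.33 to -0.26), under 1.5-fold.

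**Figure D3:**
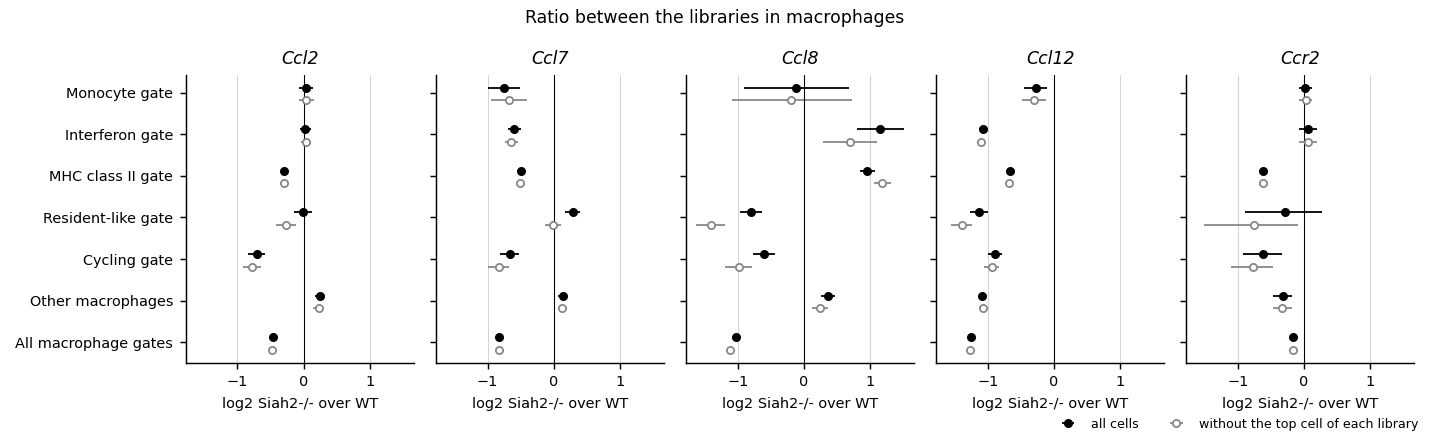
Points give the log2 ratio of Siah2-/- to WT (x axis) of each gene in each macrophage state shown (rows), with 95% conditional binomial intervals for counting error. Filled points are all cells and open points leave out the cell with the most UMIs of the gene in each library. Ccl12 lay below 0 in every row, whereas Ccl8 lay on both sides of 0.

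Over all macrophage gates, Ccl12 was at 1658 CPM (1642 to 1675) in WT and 698 (688 to 708) in Siah2-/-, a log2 ratio of -1.25 (-1.27 to -1.22) or 2.38-fold lower. Of the 5 genes, Ccl7, Ccl8 and Ccl12 were at least 1.5-fold lower and 0 were as much higher, where 8.43% of 12006 genes tested were that much lower and 10.1% higher. The median log2 ratio of all genes was -0.041. As a description of levels at equal composition, both libraries were given the same mix, the mean of their mixes of UMIs over the 7 states. Ccl12 then had a ratio of -0.96, and WT levels with the Siah2-/- mix gave -0.25. Values with a fixed mix use the states as gated, among them a resident-like gate of 19 Siah2-/- cells.

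**Figure D4:**
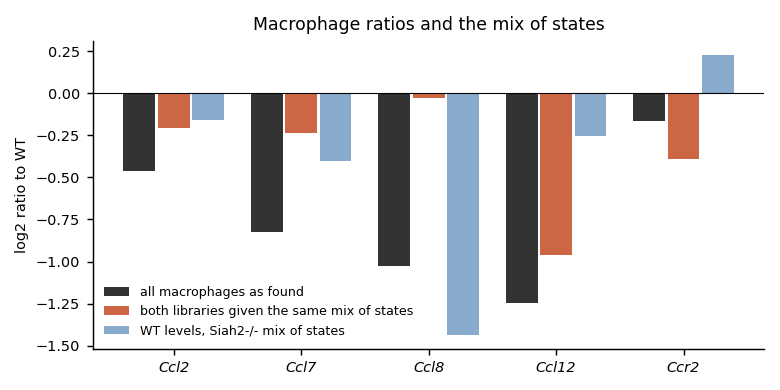
Bars give the log2 ratio to WT (y axis) over all macrophages of each gene. Black bars are the cells as found, orange bars give both libraries the same mix of states, and blue bars combine WT levels with the Siah2-/- mix of states. Ccl8 had -1.03, -0.029 and -1.44, and Ccl12 had -1.25, -0.96 and -0.25.

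The ligands were compared with each other inside the same cells, as ratios of UMIs. Ccl12 per UMI of Ccl2 was 2.55 (2.43 to 2.67) in WT and 1.19 (1.14 to 1.25) in Siah2-/- in the interferon gate, and 1.95 (1.89 to 2.02) and 0.892 (0.783 to 1.02) in the resident-like gate. In other macrophages it was 2.48 and 0.989. In the monocyte gate it was 0.417 (0.374 to 0.466) and 0.337 (0.308 to 0.369). In the MHC class II gate it was 2.28 (2.21 to 2.36) and 1.76 (1.70 to 1.83). In the cycling gate it was 1.69 (1.60 to 1.77) and 1.49 (1.34 to 1.65), with intervals that met. Against a neighbouring gene of the same cluster, counted in the same cells, Ccl12 was thus lower in Siah2-/- in each of the 6 states, in the cycling gate with intervals that met. The marker C1qa, a subunit of complement C1q, was also lower in Siah2-/- in each of the 6 states. It was at 2221 CPM in WT and 772 in Siah2-/- in the monocyte gate, 4427 and 2507 in the interferon gate, 5878 and 4421 in the MHC class II gate, and 6139 and 3711 over all macrophage gates. Its part in the Ccl7 and Ccl12 ratios was not tested.

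Ccl2, a ligand of CCR2, was found in each of the 6 macrophage states. Its level was highest in the resident-like gate, at 1593 CPM (1550 to 1636) in WT and 1587 (1451 to 1733) in Siah2-/-, and lowest in the MHC class II gate, at 479 (466 to 492) and 392 (381 to 403). The range over states was 3.32-fold (3.20 to 3.45) in WT and 4.05-fold (3.68 to 4.44) in Siah2-/-, the narrowest of the 4 ligands in both libraries. The monocyte gate held 587 and 600 and the interferon gate 1113 and 1133 CPM of Ccl2.

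The Ccl2 difference between the libraries was within counting error in the monocyte, interferon and resident-like gates, with log2 ratios of 0.031 (-0.077 to 0.14), 0.026 (-0.052 to 0.10) and -0.0052 (-0.14 to 0.13). In the resident-like gate 1 of the 19 Siah2-/- cells held 24.2% of the UMIs, and without the top cell of each library the ratio was -0.27 (-0.42 to -0.12). It was lower in Siah2-/- in the cycling gate (-0.71) and in the MHC class II gate (-0.29). In other macrophages it was higher, at 792 against 938 (0.24, 0.17 to 0.32). In the MHC class II state as clustered within each library the ratio was 0.25, so the direction there depends on how the state is drawn. Other states depended on it as well. In the resident-like gate Ccl2 was at 0.72 (0.50 to 0.94) with the thresholds of the states raised to 1.5 times and at -0.44 (-0.55 to -0.33) with them lowered by 1.5 times. The interferon gate was at 0.15 and 0.13, both beyond counting error, the monocyte gate at 0.024 and 0.29, the MHC class II gate at -0.48 and -0.33, and other macrophages at -0.24 and 0.41. Over all macrophage gates the ratio was -0.46 (-0.49 to -0.43), and with the same mix of states -0.20.

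Cells of the CD45-negative gate held Ccl2 as well. They had tumor markers and no UMI of Ptprc, the gene of CD45, or fibroblast markers, for which Ptprc was not checked. They held 348 CPM of Ccl2 (340 to 357) in WT and 513 (490 to 537) in Siah2-/-, with a UMI in 28.9% and 31.9% of cells after thinning, against 4.41% and 6.96% of T and NK cells, and supplied 21.9% of all Ccl2 UMIs of the WT library and 9.43% of those of Siah2-/-. The gate held 743 WT and 144 Siah2-/- cells. CD45- cells were mixed with CD45+ cells after sorting, so the share of cells in this gate is not interpreted. The CD45-negative cells with a UMI of Hmga2, which was among the markers used for tumor cells, had 433 and 619 CPM of Ccl2, and those without had 261 and 454. Ccl12 was scarce in the same gate, at 16.2 and 11.8, so that 1 UMI of Ccl2 came with 0.0464 UMIs of Ccl12 in WT and 0.0230 in Siah2-/-, against 2.06 and 1.20 in macrophages. Ccl7 was present at 0.136 and 0.139 UMIs per UMI of Ccl2, against 1.06 and 0.829 in macrophages. The gate as a whole was 1.47-fold higher in Ccl2 in Siah2-/- (log2 ratio 0.56, 0.48 to 0.63), and 1.5-fold or more higher in Ccl7, Ccl8 and Ccr2, as were 11.2% of the genes tested in it. The Ccr2 value rests on 128 and 47 UMIs. In Siah2-/-, 23.2% of the Ccl2 UMIs of the gate came from 1 cell. Without the top cell of each library the ratio was 0.25, and that of Ccl7 was 0.50, under 1.5-fold. Leukocyte markers were higher in this gate of Siah2-/- too, with C1qa at 45.9 and 68.3 CPM, Cd3e of T cells at 5.43 and 10.2 and Ncr1 of NK cells at 2.63 and 6.99, and their part in these ratios was not tested.

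Ccl7, a ligand of CCR2 and of further receptors, had its highest level in the resident-like gate, at 2082 CPM (2034 to 2132) in WT and 2536 (2363 to 2718) in Siah2-/-. Its lowest macrophage level was in the monocyte gate, at 145 (128 to 163) and 85.9 (76.0 to 96.8). The resident-like gate was 14.4-fold (12.7 to 16.3) above the monocyte gate in WT and 29.5-fold (25.7 to 34.0) in Siah2-/-, so the states at the ends of the order of Ccl7 were those at the opposite ends for Ccr2. A UMI of Ccl7 was found in 87.1% and 73.7% of resident-like cells but in 16.8% and 12.6% of the monocyte gate. The share in T and NK cells was 6.66% and 8.02%.

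Between the libraries, Ccl7 was lower in Siah2-/- in 4 of the 6 states, with log2 ratios of -0.75 in the monocyte gate, -0.59 in the interferon gate, -0.49 in the MHC class II gate and -0.67 in the cycling gate. It was higher in the resident-like gate (0.28, 0.18 to 0.39) and in other macrophages (0.14, 0.068 to 0.21). A single one of the 19 resident-like cells of Siah2-/- held 26.2% of the Ccl7 UMIs of that gate, and without the top cell of each library the ratio there was -0.0044 (-0.13 to 0.12). The same clusters of the MHC class II state gave 0.39. With raised and with lowered thresholds of the states Ccl7 was at -0.34 and -0.97 in the monocyte gate, -0.35 and -0.30 in the interferon gate, -0.96 and -0.42 in the MHC class II gate, 0.63 and -0.11 in the resident-like gate, -0.72 and -0.36 in the cycling gate and -0.22 and -0.027 in other macrophages. The pooled ratio was -0.82 (-0.85 to -0.79), and -0.24 with the same mix of states.

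Ccl8 was the gene most tied to 1 state. The resident-like gate held 1772 CPM of Ccl8 (1727 to 1818) in WT and 1019 (910 to 1137) in Siah2-/-, and the monocyte gate 12.8 (8.19 to 19.0) and 11.8 (8.29 to 16.2). The difference was 139-fold (93.1 to 217) in WT and 86.5-fold (61.5 to 125) in Siah2-/-. Cycling macrophages, at 594 and 391, and other macrophages, at 409 and 528, lay between. In WT the MHC class II gate at 91.5 and the interferon gate at 43.3 followed, and their intervals did not meet. Ccl8 was also uneven from cell to cell. In the MHC class II gate, a UMI of Ccl8 was seen in 10.8% of WT and 11.1% of Siah2-/- cells, against 2.63% and 3.24% of T and NK cells. The 10% of cells with the highest levels in the MHC class II gate held 88.7% and 94.2% of its Ccl8 UMIs.

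Over all macrophages Ccl8 was 2.04-fold lower in Siah2-/-, at 404 against 198 CPM (log2 ratio -1.03, -1.08 to -0.98). The states did not share this direction. The ratio was -0.80 in the resident-like gate and -0.60 in the cycling gate, but 1.15 (0.80 to 1.51) in the interferon gate, 0.96 (0.85 to 1.07) in the MHC class II gate and 0.37 in other macrophages. Given the same mix of states, the ratio of Ccl8 was -0.029. WT levels combined with the Siah2-/- mix of states gave -1.44. A single one of the 19 resident-like cells of Siah2-/- held 42.4% of the Ccl8 UMIs of that gate. Without the top cell of each library the Siah2-/- level was 625 CPM and the ratio -1.41. In the interferon gate of Siah2-/- 1 cell held 37.8%, and without the top cells the ratio was 0.69 (0.29 to 1.10). In the WT MHC class II gate 1 cell held 31.8% of the Ccl8 UMIs, and in Siah2-/- 20.2%, and without these cells the ratio in that gate was 1.19. Some of these directions turned with the thresholds of the states raised to 1.5 times. The ratio was then -0.48 in the interferon gate and 0.34 in the resident-like gate with its 5 Siah2-/- cells. It stayed above 0 in the MHC class II gate (0.40) and in other macrophages (0.25), and was -2.87 (-3.39 to -2.40) in the cycling gate, which kept 22 Siah2-/- cells. Clusters of the MHC class II state within each library gave 2.96 (2.82 to 3.09), so the size of the ratio there also depends on how the state is drawn. The resident-like cells of the libraries also differed in a marker, with 915 and 168 CPM of Fcrls in WT and Siah2-/-, and the part of this in the ratios was not tested.

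Within the MHC class II gate, cells with Ccl2 more often had Ccl7 or Ccl12. In WT, a UMI of Ccl12 was seen in 76.1% of the 481 cells with a UMI of Ccl2 and in 47.3% of the 486 cells without, after thinning. In Siah2-/- the shares were 64.3% of 428 and 35.7% of 580. Ccl7 was seen in 54.1% of WT cells with Ccl2 and 17.9% of those without. Ccr2 was seen in 69.9% of the WT cells with Ccl2 and 73.5% of those without. In cells with a UMI of Ccl7 it was seen in 64.6%, and in cells without in 75.6%. In Siah2-/- these shares were 50.7% and 59.1%. Cells of a library share its free RNA, so the shares are a description.

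**Figure D5:**
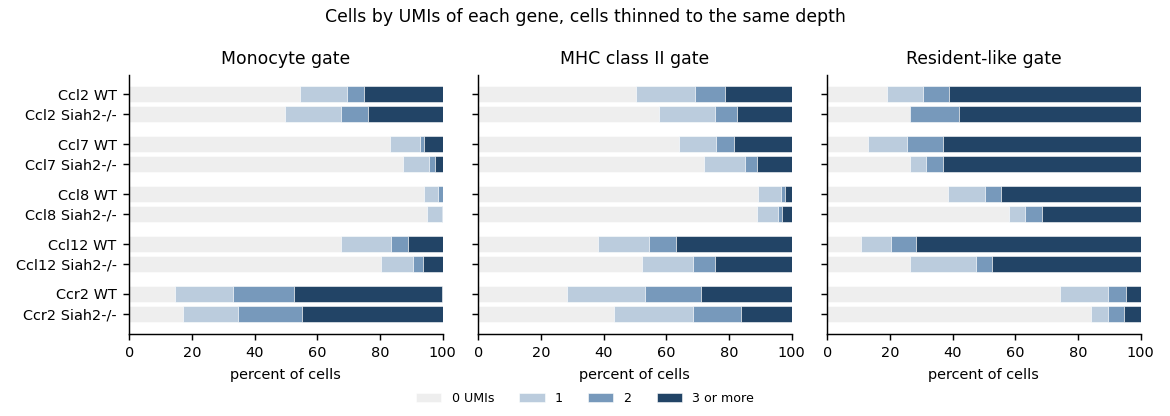
Bars divide the cells of 3 gates by the number of UMIs of each gene (0, 1, 2 or 3 and more, from light to dark) after each cell was thinned to 4000 UMIs, with percent of cells on the x axis. In the resident-like gate most cells had 3 or more UMIs of Ccl2 and Ccl7 and few had any of Ccr2, and in the monocyte gate Ccr2 was the gene seen in most cells.

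Ccr2, the receptor of CCL2, CCL7 and CCL12, was highest among macrophage states in the monocyte gate in both libraries, at 666 CPM (630 to 704) in WT and 674 (646 to 704) in Siah2-/-. A UMI of Ccr2 was seen in 85.5% and 82.8% of these cells after thinning. Its lowest macrophage level was in the resident-like gate, at 109 (97.8 to 121) in WT and 88.9 (59.1 to 128) in Siah2-/-. The monocyte gate was thus 6.13-fold (5.45 to 6.91) above the resident-like gate in WT and 7.59-fold (5.23 to 11.4) in Siah2-/-. In WT the MHC class II gate at 427 came before the interferon gate at 375, and in Siah2-/- the interferon gate at 389 came before the MHC class II gate at 279. In neither library did the intervals of these neighbours meet.

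The Ccr2 difference between the libraries was within counting error in the monocyte gate (log2 ratio of Siah2-/- to WT 0.018, interval -0.084 to 0.12) and in the interferon gate (0.053, -0.081 to 0.19). It was lower in Siah2-/- in the MHC class II gate, with a log2 ratio of -0.62 (-0.68 to -0.55) or 1.53-fold lower, and the share of cells with a UMI there was 71.7% in WT and 56.7% in Siah2-/-. The ratio was -0.63 (-0.93 to -0.33) in the cycling gate, but -0.28 (-0.66 to 0.093) with the thresholds of the states raised to 1.5 times. The resident-like gate, with few Ccr2 UMIs in Siah2-/-, was at -0.29 (-0.90 to 0.26), at 1.03 (0.057 to 1.86) with raised thresholds and at -0.76 (-1.51 to -0.096) without the top cell of each library. In all macrophage gates together it was -0.17 (-0.21 to -0.12). Monocytes, where the receptor was highest, were the larger share of kept macrophages in Siah2-/-, a difference that depended on the depth minimum as given above. With both libraries given the same mix of states the ratio was -0.39, so Ccr2 was the gene of the 5 whose difference was larger with a fixed mix than in the cells as found.

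Outside macrophages, Ccr2 was high in NK cells, at 375 CPM (356 to 394) in WT and 416 (399 to 433) in Siah2-/-, and in Foxp3-expressing regulatory T cells (Tregs), at 339 (287 to 397) and 545 (489 to 606). The Treg gate held 46 and 74 cells, and a UMI of Ccr2 was found in 69.6% and 81.1% of them after thinning. Its Treg level was 1.61-fold higher in Siah2-/- (log2 ratio 0.69, 0.41 to 0.97), and 14.9% of the genes tested in this gate were 1.5-fold or more higher. Without the top cell of each library the ratio was 0.72. Other markers were higher in this gate of Siah2-/- as well, with Ncr1 at 4.40 and 40.1 CPM, C1qa at 41.8 and 130 and Cd3e at 398 and 587, and their part in the Ccr2 ratio was not tested. CD8 T cells had 136 and 176 CPM of Ccr2. CD45-negative cells, which hold the fibroblasts and tumor cells and served as cells that should lack the receptor, had 6.74 and 12.6 CPM, with a UMI in 2.29% and 3.47% of cells. Median UMIs per cell were 8815.5 and 6666 in the Treg gate and 23403 and 26595 in the CD45-negative gate.

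T and NK cells held few ligand UMIs. Over the T and NK gates Ccl2 was at 11.9 CPM in WT and 18.6 in Siah2-/-, Ccl7 at 16.1 and 19.6, Ccl8 at 5.98 and 10.4 and Ccl12 at 18.5 and 15.1. Droplets with 1 to 100 UMIs, which carry free RNA of the suspension, had 373 and 348 CPM of Ccl2 and 485 and 305 CPM of Ccl12. Across the 4 lymphoid gates the ligands were at 2.54% to 8.42% of the level in those droplets. Ccr2 was at 159% and 230% of it in Tregs and at 175% in NK cells of both libraries. In CD8 and other T cells it was between 63.8% and 88.4%. The droplets of Siah2-/- also held less Ccl12 than those of WT, while Ccr2 was at 214 and 237 CPM in them.

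The dendritic cell (DC) gates held less Ccl2 than each macrophage state, but this did not hold for every ligand. In WT the mature DC gate held 333 CPM of Ccl12, against 245 in the monocyte gate. The conventional DC gate of WT held 95.2 CPM of Ccl8, against 91.5 in the MHC class II gate. The conventional DC gate was set by Flt3, Clec9a and related genes, or by MHC class II markers below the macrophage threshold. Cells above that threshold could enter either DC gate by their DC markers. In the conventional DC gate Ccl2 was at 90.5 and 88.4 CPM, a difference within counting error. Ccl7 was at 78.8 and 14.2, Ccl8 at 95.2 and 6.00 and Ccl12 at 134 and 30.7, all past 1.5-fold lower in Siah2-/-, as were 10.6% of the genes tested in this gate. Of the 162 UMIs of Ccl8 in WT, 82.7% came from 1 cell, and of those of Ccl7 53.7%. Without the top cell of each library the log2 ratios were -1.88 for Ccl8, -1.51 for Ccl7 and -2.26 for Ccl12, against -3.99, -2.47 and -2.12 with them. The macrophage marker C1qa was lower in this gate too, at 470 CPM in WT and 101 in Siah2-/-, while Csf1r was at 88.2 and 131. Ccr2 was higher in Siah2-/- in this gate, at 111 (95.3 to 127) against 205 (182 to 231), with a UMI in 29.3% and 41.7% of 150 and 132 cells, and 12.6% of genes were 1.5-fold or more higher. The mature DC gate held 50 and 78 cells and 333 and 26.3 CPM of Ccl12, and 54.6% of the WT UMIs came from 1 cell. Ccr2 was lower in Siah2-/- in this gate, at 66.9 against 38.1 CPM (log2 ratio -0.81, -1.56 to -0.0805), and without the top cell of each library its ratio was -0.41 (-1.29 to 0.47). C1qa was at 1172 and 426 CPM and Csf1r at 92.6 and 50.0 there, and the part of macrophage RNA in the ratios of both DC gates was not tested. In mature DCs 13.4% of the genes tested were 1.5-fold or more lower.

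The same genes were read in barcodes below the lowest depth of a kept cell. Such macrophage barcodes, with at least 1000 UMIs, numbered 1374 in WT and 709 in Siah2-/-. Ccl12 was lower in Siah2-/- there too, at 568 (550 to 587) against 285 (262 to 308) CPM, with an interval of the log2 ratio of -1.12 to -0.87. Ccr2 was at 633 and 378 (-0.74, -0.86 to -0.63). The Ccl7 difference was within counting error (-0.054, -0.20 to 0.091), and Ccl8 was higher in Siah2-/- (0.38, 0.22 to 0.55). The barcodes of the libraries had different median depths, 5183 and 2983. Among those high in monocyte markers, 786 in WT and 241 in Siah2-/-, Ccr2 was at 727 and 550 CPM (-0.40, -0.54 to -0.26), Ccl12 at 212 and 163 (-0.38), Ccl7 at 111 and 141 (0.34) and Ccl8 at 11.4 and 24.0 (1.07). Over all monocyte-marker barcodes, kept cells included, the Ccr2 ratio was -0.16 (-0.22 to -0.099). In the monocyte gate of kept cells, by contrast, the Ccr2 difference was within counting error and Ccl7 was lower in Siah2-/-.

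Genes with the most similar pattern were sought over the 24 combinations of gate and library with at least 50 cells, among 9776 genes with at least 500 UMIs, by Pearson's r of log2(CPM + 1). Points of the same library share its free RNA and depth, so r is a description. Ccl12 was most like Lilra5 (0.97), the complement genes C1qa, C1qb and C1qc (each 0.97) and Ms4a7 (0.97). Ccl7 was most like Ccl12 (0.95) and then C1qc, Stab1, C1qa and C1qb. Ccl2 was most like Rin2 (0.97), Adam9, Cd302, Blvrb and Grn. Ccl8 was most like Gna12 (0.93), Cltc, Scamp5, 2610001J05Rik and Abhd12. Ccr2 stood apart from the ligands, with r of -0.023 to Ccl2, 0.12 to Ccl7, -0.14 to Ccl8 and 0.34 to Ccl12, and was most like Fxyd5 (0.93), Neurl3, Ncf4, Tgfb1 and Cd53.

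Other genes of the chemokine system were counted over all macrophage gates, where 10.1% of all genes were 1.5-fold or more higher and 8.43% lower. Of the 11 other ligands tested, 3 were 1.5-fold or more higher and 3 lower in Siah2-/-, with a median log2 ratio of -0.099 beside -0.041 for all genes. Ccl5, a chemoattractant of T cells and macrophages, was at 932 and 1994 CPM (1.10) and Ccl6 at 303 and 477 (0.66). Ccl24 was at 3.41 and 17.5 (2.36), and Ccl17, a ligand of CCR4, at 8.21 and 0.229 from 202 and 6 UMIs (-5.17, -6.63 to -4.02). Of 5 other chemokine receptors tested 2 were higher and 1 lower. The lower one was Cx3cr1, the fractalkine receptor of resident and patrolling cells, at 219 and 87.8 (-1.32, -1.39 to -1.25). The higher ones were Cxcr4, the receptor of CXCL12, at 14.5 and 29.2 (1.01) and Ccr8, the receptor of mouse CCL8, with 8 and 13 UMIs in all and an interval of -0.77 to 2.08, named although it had fewer than 100 UMIs. Ccr1 was at 331 and 451 (0.44).

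Cytokines, transcription factors and regulators tied to expression of the ligands, inhibitors among them, were counted in the same way. The same 10.1% higher and 8.43% lower of all genes stand beside these counts. Of 8 cytokines tested 4 were 1.5-fold or more higher and 1 lower. Il1b, the precursor of interleukin 1 beta, was at 776 and 1774 CPM (1.19, 1.17 to 1.22), while Tnf was at 29.1 and 28.4 (-0.033) and Il10 at 6.75 and 3.62 (-0.90). Of 9 transcription factors and regulators, 2 were higher and 0 lower, Irf1 at 111 and 181 (0.70) and Nfkbia at 243 and 390 (0.68). Among 7 genes of receptor signalling, Ccrl2, which binds chemoattractants without signalling, was higher at 121 and 209 (0.79) and the others were within 1.5-fold. Of 5 growth factor genes tested 0 were higher and 1 was lower, and Csf1r, the receptor for the macrophage growth factor, was at 568 and 525 (-0.11).

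Genes that respond to tissue digestion and stress differed between the libraries as well. Of 10 immediate early and heat shock genes, 7 were 1.5-fold or more higher in Siah2-/- and 0 lower, with a median log2 ratio of 0.76, beside 10.1% higher and 8.43% lower of all genes. Atf3, a stress-induced transcription factor, was at 113 and 231 CPM (1.03), and the heat shock gene Hspa1a at 15.1 and 74.2 (2.30). In the MHC class II gate 4 of the 10 were higher, beside 8.95% of all genes. Their part in the ratios of the 5 genes was not tested.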

How the data were processed

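Single-cell libraries of 1 WT and 1 Siah2-/- pool were read as the authors deposited them. According to the study's methods, reads were demultiplexed with bcl2fastq and processed by Cell Ranger on mm10 (GRCm38). The versions are not given in the sources used here. The authors deposited counts as whole UMIs per gene and cell, after they had removed extreme cells and cells rich in mitochondrial transcripts, and unfiltered count matrices with every barcode. The deposited natural log values were normalized to the UMIs of each cell by the authors and were used for the list of kept cells, which left 4512 of 4524 WT and 5563 of 5576 Siah2-/- cells. Counts of the 5 genes in the table and the matrices were the same in every cell (0 values differing). Columns of other samples numbered 0.

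Genes and lists were chosen with earlier results of these data known. Cells were thinned to 4000 UMIs and assigned by summed markers, with at least 15 UMIs of the macrophage list and at most a few T, NK or stromal marker UMIs for macrophages. States were set by thresholds of 4 UMIs for resident-like, 5 for cycling, 30 for interferon, 30 for monocyte and 150 for MHC class II markers. A further state entered totals and mixes and is not reported here. Cells with markers of several lineages were set apart, and no doublet caller was run. Ratios used summed unthinned UMIs, genes with at least 20 UMIs and, for calls, 1.5-fold. Intervals are at 95% and cover counting error only, and no p-value was computed. The ratio and thinning steps were tested on simulated data. Named genes of other lists were among the 3 highest or lowest ratios of their list with at least 100 UMIs, and the 5 genes most like each of the 5. Alternatives were other gates, clusters, depth minima, scalings, weights and left-out cells. Python 3.11.15, numpy 2.4.6, scipy 1.17.1, pandas 2.3.3 and scanpy 1.11.5 were used.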

Additional observations from a re-analysis of the deposited data

Results flagged for a closer look

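For 3 of the ligands the log2 ratio of Siah2-/- to WT took opposite signs in different macrophage states, each beyond its counting interval. With 1 library per genotype the difference between states was not tested. Ccl2 was at 0.24 in other macrophages and -0.71 in the cycling gate, and with the state thresholds raised to 1.5 times the value in other macrophages was -0.24. Ccl7 was at 0.28 in the resident-like gate and -0.75 in the monocyte gate, and without the top cell of each library the resident-like value was -0.0044. Ccl8 was at 1.15 in the interferon gate and -0.80 in the resident-like gate, and with the state thresholds raised to 1.5 times both signs turned, to -0.48 and 0.34, while without the top cell of each library they were 0.69 and -1.41. The resident-like gate held 19 Siah2-/- cells.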

How the results depend on the processing

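The log2 ratios over all macrophages (Ccl2 -0.46, Ccl7 -0.82, Ccl8 -1.03, Ccl12 -1.25, Ccr2 -0.17) stayed below 0 under each alternative run. With the same mix of states they were -0.20, -0.24, -0.029, -0.96 and -0.39 in that order. With the lowest UMI count of WT applied to both libraries they were -0.50, -0.67, -0.87, -1.11 and -0.33, and in all barcodes with at least 1000 UMIs -0.43, -0.61, -0.63, -1.14 and -0.35. Without the 5% of cells with the most UMIs they were -0.51, -1.01, -1.24, -1.32 and -0.11, and as a mean over cells -0.39, -1.03, -1.26, -1.37 and -0.087. Clusters within each library gave -0.77 for Ccl7 and -0.76 for Ccl8, subtraction of the median of all genes gave -0.42 for Ccl2, -0.78 for Ccl7 and -1.21 for Ccl12, and Ccl8 without its top cell was at -1.11. In the MHC class II state, clusters within each library turned Ccl2 to 0.25 and Ccl7 to 0.39 and gave 2.96 for Ccl8, -0.29 for Ccl12 (from -0.66) and -0.79 for Ccr2 (from -0.62), and the cause was not tested. Without the 34 shared barcodes Ccl12 was at -1.26. Genes past 1.5-fold numbered 2222, against 3950 with at least 1 UMI and 1392 with at least 100 UMIs, where more and fewer genes were tested. Thresholds of the states, depth minima for the share of monocytes, shared barcodes and the top cell within a state were added after the data were seen. No paired analysis was possible because each genotype has 1 library, and no replicate could be left out. Depth limits values that rest on few UMIs, such as Ccl8 with 24 and 37 in the monocyte gate and Ccr2 with 28 in the resident-like gate of Siah2-/-.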
